A study of Homo sapiens with 5 samples.

Results

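The genes described here encode the transcription factor NRF2 (NFE2L2), its repressor KEAP1, a small Maf protein (MAFG), the selective autophagy receptor p62 (SQSTM1), the heme-binding repressor BACH1 and the stress-induced protein OSGIN1. They were chosen by gene, not by a measured value: every NRF2 peak whose summit lay in a window around 1 of these 6 genes was taken from each of 2 peak lists. The windows, in hg19, were chr2:178085000-178140000 for NFE2L2, chr19:10585000-10625000 for KEAP1, chr17:79865000-79895000 for MAFG, chr5:179220000-179275000 for SQSTM1, chr21:30660000-30730000 for BACH1 and chr16:83970000-84010000 for OSGIN1. They held 3 of the 1925 peaks called after sulforaphane and 1 of the 2199 peaks called after vehicle.

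Under resting conditions KEAP1 holds NRF2 in the cytoplasm and presents it to a CUL3-RBX1 ubiquitin ligase for destruction. Electrophiles such as sulforaphane (SFN), an isothiocyanate from cruciferous vegetables, modify cysteines of KEAP1, and NRF2 then accumulates, pairs with a small Maf protein and binds antioxidant response elements. BACH1 competes for the same elements, p62 can draw KEAP1 away from NRF2, and several of these genes are themselves described as NRF2 targets, which closes positive and negative feedback loops.

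The cells were BEAS-2B, an immortalised human bronchial epithelial line, and DNA bound by NRF2 was enriched from their sonicated nuclei with a rabbit monoclonal antibody and sequenced, an assay known as ChIP-seq. The groups were 2 samples of cells exposed for 5 h to 10 µM D,L-sulforaphane, 2 samples kept for the same time in 0.1% DMSO as vehicle, and 1 vehicle sample precipitated with rabbit IgG. All 5 samples come from the same cell line, and the labels do not say whether samples of a group were separate cultures. The deposited values are 1 peak list per treatment, so no value per sample, no spread between replicates and no test across replicates can be given. Before tags were limited to 1 per position there were 23090154 for SFN and 11377334 for vehicle, and 32.3% and 12.8% were kept. Depth below means kept tags, so it reflects the share kept as well as the number of tags before that limit. The SFN list rested on 7448599 tags kept at 1 per position and the vehicle list on 1459665, so the first had 5.10 times as many. Both were called against the same 28125771 control tags.

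After SFN, peaks were called in the windows of KEAP1, MAFG and SQSTM1, and none in those of NFE2L2, BACH1 and OSGIN1. After vehicle, MAFG alone of the 6 had a peak, and it lay at the same place as the SFN peak. Thus 1 of the 3 SFN peaks overlapped a vehicle peak, a share near that of the whole SFN list, where 730 of 1925 (37.9%) did. In the SFN list 3 of 6 windows thus held a peak, against 1.66% of all 50-kb stretches of the genome between the outermost peaks of each chromosome. In the vehicle list it was 1 of 6, against 2.34% of the stretches. These stretches include DNA far from genes, and the windows were from 30 to 70 kb wide, so the shares describe how sparse the lists are and were not tested. Each peak has a height, which is the number of tags over its summit, and a fold over the local control, both as given by the authors' peak caller. Which exon, intron or promoter a peak lies in was not determined, since an annotation of hg19 was not used here.

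MAFG, which encodes a small Maf protein of the type that NRF2 pairs with to bind DNA, had the strongest peak of the group. The SFN peak spanned 284 bp at chr17:79881357-79881640, with its summit at 79881496, 88 tags and a fold of 24.4. Among the 1925 SFN peaks it was 14th by p-value, 23rd by fold and 148th by height, with a deposited −log10 p of 99.7 and −log10 q of 93.9. The vehicle peak spanned 320 bp at chr17:79881316-79881635, with its summit at 79881492, 14 tags and a fold of 10.1. It was 131st of 2199 by fold and 325th by p-value, with a −log10 p of 16.99 and a −log10 q of 12.4. The summits lay 4 bp apart, and the peaks overlapped over 279 bp, which is 98.2% of the SFN peak and 87.2% of the vehicle peak. No other peak of either list lay in this window, and the nearest outside it were 1636 kb below in the SFN list and 175 kb below in the vehicle list.

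**Figure D1:**
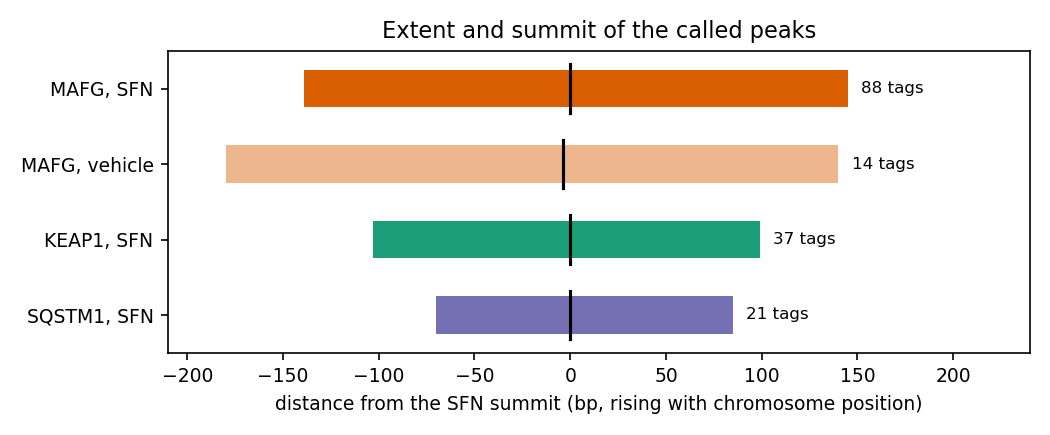
Extent of each called peak (bars) and its summit (black lines) in bp from the SFN summit at the same gene, with the tags at the summit beside each bar. The MAFG peaks of the SFN and vehicle lists share nearly all of their extent, and KEAP1 and SQSTM1 have an SFN peak only.

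Scaled to 1000000 kept tags, the SFN peak of MAFG had a height of 11.8 tags (exact Poisson 95% interval 9.48 to 14.6) and the vehicle peak one of 9.59 (5.24 to 16.1). The SFN interval lies wholly within the wider vehicle interval. At the vehicle depth, the 88 SFN tags correspond to 17.2 tags (13.8 to 21.2), and 14 were seen. The ratio of vehicle to SFN was 0.81, with an exact interval of 0.43 to 1.44. It covers counting error alone. The limit of 1 tag per position, the efficiency of each precipitation and the choice of the summit as the highest point also enter the ratio, and their part was not tested.

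The same ratio was lower at 2 target genes with a peak in both lists. NQO1, a quinone reductase that serves as a standard readout of NRF2, had 122 tags after SFN and 7 after vehicle, a ratio of 0.29 (0.12 to 0.62). For the ferritin heavy chain gene FTH1 the tags were 92 and 5, a ratio of 0.28 (0.088 to 0.67). The summits of the lists lay 77 bp apart at NQO1 and 1 bp apart at FTH1, so the 2 heights at NQO1 belong to different positions. The overlap covered 36.3% of the SFN peak at NQO1 and 40.1% at FTH1, less than at MAFG. The genes also differed in control level, which is the local control over the genome average. At the SFN peaks it was 6.27 for MAFG, 2.78 for NQO1 and 1.92 for FTH1. With these limits, the ratio at MAFG was the highest of the 3 genes, and the difference between genes was not tested.

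**Figure D2:**
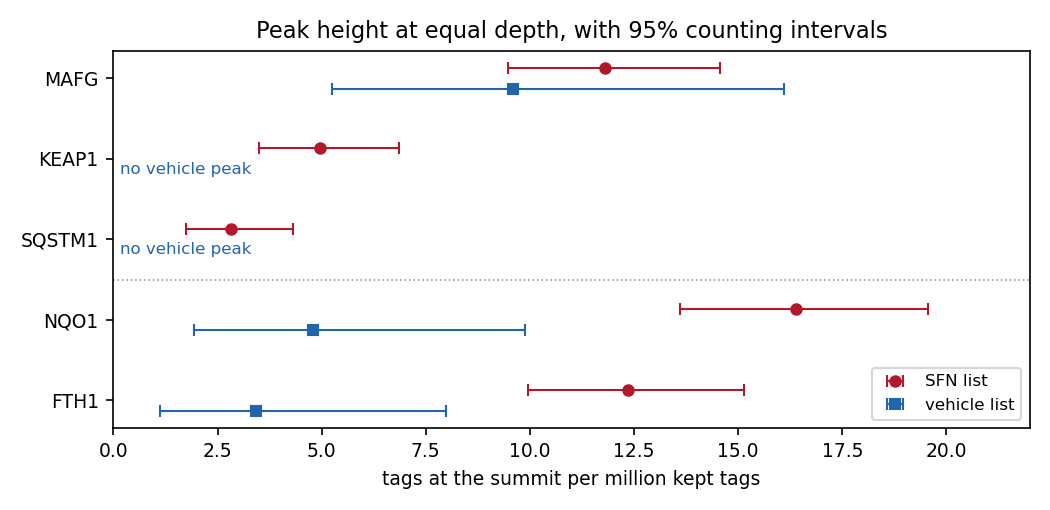
Tags at the summit scaled to 1000000 kept tags (points) with exact Poisson 95% intervals (bars), for the genes with an SFN peak above the dotted line and for the target genes NQO1 and FTH1 below it. The SFN and vehicle intervals overlap at MAFG (11.8 and 9.59 tags) and do not at NQO1 or FTH1 (16.4 against 4.80 and 12.4 against 3.43). MAFG lies at a higher local control than NQO1 and FTH1, and the difference between genes was not tested. KEAP1 and SQSTM1 have no vehicle peak to plot.

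MAFG was also set beside the SFN peaks above it by p-value, 14 with MAFG itself. Of these, 12 overlapped a vehicle peak, and MAFG had the fifth highest ratio among them. NQO1 and FTH1 are among these 12, so this comparison is not independent of the last. Where more than 1 vehicle peak overlapped an SFN peak, the highest was taken, here and over all shared peaks below. The ratios ran from 0.25 to 1.95 with a median of 0.49. The 4 above MAFG, from 1.74 to 1.95, had control levels of 8.16 to 9.41 times the genome average, and the 7 below it, from 0.25 to 0.54, had levels of 1.92 to 5.02. The MAFG SFN peak lay between these groups in control level as well, at 6.27. Over all shared SFN peaks at a control level from 3 to 10, the median ratio was 2.66 (68 peaks), with a lower quartile of 1.89. Below 3 the median was 1.51 (27 peaks), from 10 to 30 it was 2.33 (309 peaks) and at 30 or more it was 2.19 (326 peaks). Shared peaks were thus mostly higher in the vehicle list after scaling, MAFG lay below the lower quartile at its own control level, and a ratio of 1 cannot be taken as the value of no change. A peak enters this comparison only if it was called in the vehicle list, which for low SFN peaks needs a high ratio, so these medians are not a measure of occupancy.

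KEAP1, the sensor and repressor of NRF2, had a single SFN peak of 202 bp at chr19:10613352-10613553, with its summit at 10613455. It had 37 tags, a fold of 7.64, a −log10 p of 23.6 and a −log10 q of 19.1, and ranked 329th of 1925 by fold and 311th by p-value. The peak was thus in the upper part of its list but far below MAFG, with a scaled height of 4.97 tags per 1000000 (3.50 to 6.85). The next SFN peak on this chromosome lay 5.82 Mb below the window. No vehicle peak was called in the KEAP1 window, and the nearest was 551 kb above it. With the local control at KEAP1, 6 tags would have reached the weakest p-value of the vehicle list. Scaled by kept tags alone, the 37 SFN tags correspond to 7.25 vehicle tags (5.11 to 9.99). A Poisson count with a mean of 7.25 reaches 6 in 73.0% of cases. This scaling takes a ratio of 1 as equal occupancy, which, as said above, cannot be taken as the value of no change. The missing vehicle call is therefore not read as a difference between the treatments.

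A promoter of KEAP1 also holds letters of the antioxidant response element. The RefSeq promoter table (GRCh38.p14) has 12 entries for the 6 genes, each with 250 bases before and 50 after a transcription start, and KEAP1 has 2 of them. The core element searched was TGACNNNGC, on both strands, which 13.3% of all 35116 promoter entries hold. Of the 12 entries, 1 matched, the second of KEAP1, and it did so at 2 places, 54 to 46 and 31 to 23 bases before the start, the latter on the opposite strand. It is shown because it is the only entry of the group with the core element and KEAP1 is 1 of the 3 genes with an SFN peak. The 250 bases before the start, on the minus strand at chr19:10502772-10503021 of GRCh38.p14 and printed 5′ to 3′ with the matches in capitals, read as follows.
KEAP1 promoter: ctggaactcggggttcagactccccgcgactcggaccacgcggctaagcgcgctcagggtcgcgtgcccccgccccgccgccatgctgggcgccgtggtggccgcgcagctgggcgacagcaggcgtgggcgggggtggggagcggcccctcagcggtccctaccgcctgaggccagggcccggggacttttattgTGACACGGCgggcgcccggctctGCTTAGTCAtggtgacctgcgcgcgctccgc

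The match nearer to the start of KEAP1 has the same letters as the one in the promoter of GCLM, the modifier subunit of glutamate-cysteine ligase and an established NRF2 target. The genes share a run of 13 letters there, TCTGCTTAGTCAT. The pair is shown with 16 bases on each side of the core, KEAP1 at chr19:10502778-10502818 and GCLM at chr1:93909440-93909480, both on the minus strand of GRCh38.p14, with the core in capitals.
KEAP1: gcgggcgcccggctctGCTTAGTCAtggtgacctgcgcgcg
GCLM: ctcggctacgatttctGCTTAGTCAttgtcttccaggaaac
GCLM also had an SFN peak and no vehicle peak, with 39 tags and a fold of 11.8 at chr1:94374899-94375228 of hg19, close to the 37 tags at KEAP1. The promoters are given in GRCh38 and the peaks in hg19, so whether the matches lie under the peaks was not determined. GCLM is shown for its like letters only. Of the other pathway genes compared below, 14 have promoter entries, and 7 of their 18 entries, at 6 genes, held the core. Among these 6, TXNRD1, GCLM and ME1 had an SFN peak, and PGD, RBX1 and MAFF had none. NQO1, FTL, GCLC, SRXN1 and BACH2 had an SFN peak without the core in their entries. CUL3, NFE2L1 and TALDO1 had neither. A match of letters is a description and not a bound site.

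SQSTM1, whose product p62 binds KEAP1 and delivers it to autophagy, had the weakest peak of the 3. It spanned 155 bp at chr5:179246530-179246684, with its summit at 179246600, 21 tags and a fold of 4.42. The −log10 p was 9.52 and the −log10 q 5.58, and the peak ranked 1256th of 1925 by fold and 1367th by p-value. It thus lay in the lower part of the list, with a scaled height of 2.82 tags per 1000000 (1.75 to 4.31). With the local control there, 14 tags would have sufficed for the weakest p-value of the SFN list, so the peak stood 7 tags above that limit, against 23 at KEAP1 and 76 at MAFG. In the vehicle library 6 tags would have been needed. Scaled by kept tags alone, the 21 SFN tags correspond to 4.12 vehicle tags (2.55 to 6.29). A Poisson count with a mean of 4.12 reaches 6 in 23.3% of cases. With this scaling, the vehicle depth could not have been relied on to show this peak. A vehicle peak of 4 tags lay outside the window, at chr5:179299062-179299215, with its summit 24.2 kb above the window edge.

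All 3 SFN peaks lay at a raised control, as most peaks of the SFN list did. The control level is the caller's local control divided by the genome average expected for that library, 0.422 tags in the case of SFN. It was 6.27 at MAFG, 9.41 at KEAP1 and 9.41 at SQSTM1, and 5.86 at the vehicle peak of MAFG. At the control library's own depth this corresponds to 10 tags at MAFG and 15 tags each at KEAP1 and SQSTM1. Over all SFN peaks the median level was 8.16 and 37.7% had a level under 3, so the 3 levels were ordinary for the list. The SFN list held 285 peaks at levels from 3 to 10, whose medians were 20 tags and 5.74-fold. Among these, 8 had a higher fold than MAFG, 74 a higher fold than KEAP1 and 261 a higher fold than SQSTM1, so MAFG was near the top of its like, KEAP1 in the upper part and SQSTM1 near the bottom. The part of the raised control in each peak was not tested.

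**Figure D3:**
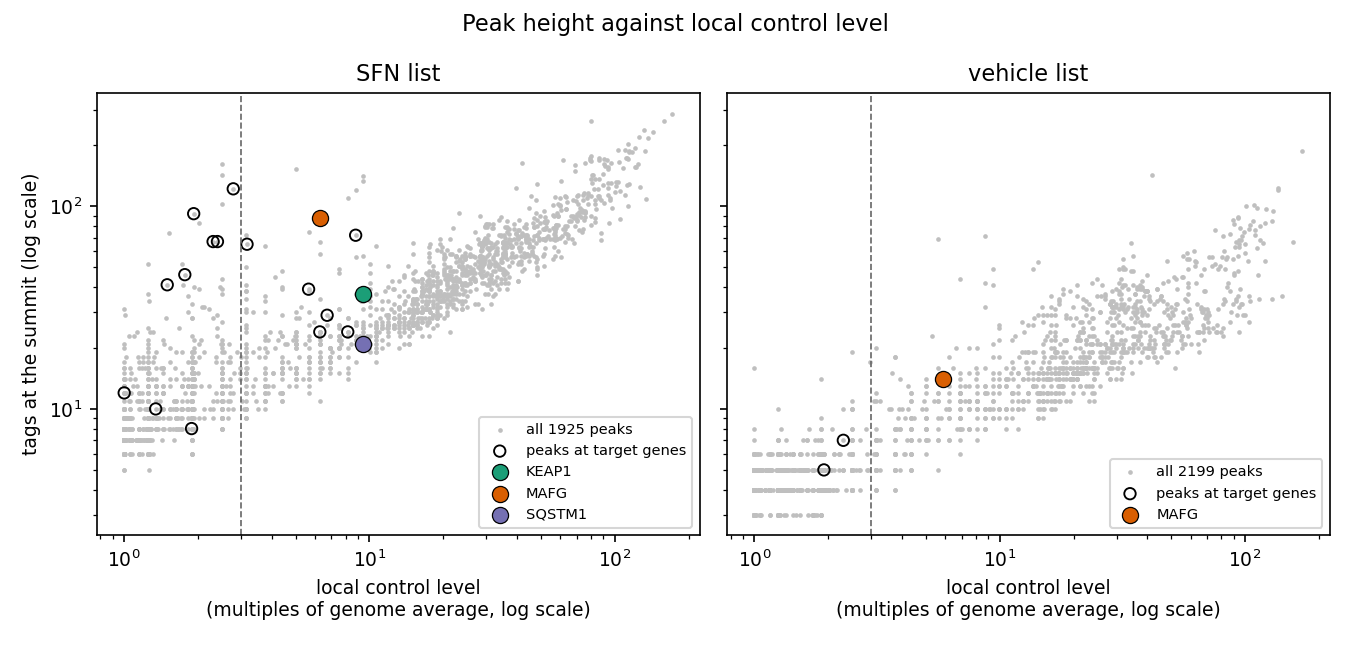
Tags at the summit against the local control level, both on log scales, for all peaks of the SFN list (left) and the vehicle list (right), with the MAFG, KEAP1 and SQSTM1 peaks filled, peaks at target genes as open circles and a dashed line at a level of 3. MAFG (88 tags at a level of 6.27) stands above most SFN peaks of like control level, SQSTM1 (21 tags at 9.41) lies among them, and the vehicle peak of MAFG has 14 tags at a level of 5.86.

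NFE2L2 itself, the gene of NRF2, had no peak in its 55-kb window in either list. The nearest SFN peak lay 4001 kb above the window (21 tags, fold 15.5) and the nearest vehicle peak 576 kb above it (6 tags, fold 6.43). BACH1 had none in its 70-kb window, with the nearest SFN peak 651 kb below (7 tags, fold 5.38) and the nearest vehicle peak 3.85 Mb below (5 tags, fold 5.54). OSGIN1, a gene induced by oxidised lipids and by NRF2, had none in its 40-kb window, with the nearest SFN peak 2.69 Mb above (8 tags, fold 6.33) and the nearest vehicle peak 294 kb below (6 tags, fold 6.46). These genes had no called peak nearby in either treatment.

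What the lists could have shown at these genes depends on the control there, which is known only at called peaks. At a control equal to the genome average, 5 tags would have reached the weakest p-value of the SFN list and 3 tags that of the vehicle list. At the control level of KEAP1 and SQSTM1 it would have been 14 tags in the SFN list. A missing call is thus the absence of a peak above these heights and not a measured absence of NRF2.

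The promoters of OSGIN1 and BACH1 hold a related element that is known as a site of AP-1. NRF2-Maf and BACH1-Maf dimers are known to recognise this element within longer sites. The pattern TGANTCA, which fits both strands at once, was found in 7.71% of all promoter entries and in 2 of the 12 of the group. Its matches lay 97 to 91 bases before the start of OSGIN1 and 48 to 42 bases before a start of BACH1. They are shown because neither gene had a peak, at chr16:83953127-83953165 for OSGIN1 and chr21:29298858-29298896 for BACH1, both on the plus strand of GRCh38.p14, with the element in capitals.
OSGIN1: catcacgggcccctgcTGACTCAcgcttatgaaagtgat
BACH1: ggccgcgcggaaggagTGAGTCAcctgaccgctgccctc
The entries of NFE2L2 (2), MAFG (1) and SQSTM1 (3) held neither element in these windows of 300 bases. The core element was thus in 8.33% of the 12 entries against 13.3% of all, and with so few entries nothing is read from these counts.

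The group was set beside 19 other genes of the pathway, each with its gene span and 10 kb on either side. Of 6 other regulators and partners (CUL3, RBX1, MAFF, MAFK, BACH2 and NFE2L1), 1 had an SFN peak and 1 a vehicle peak, and these were different genes. BACH2, a repressor related to BACH1, had an SFN peak of 6 tags and a fold of 4.58. RBX1, the RING subunit of the KEAP1 ligase, had a vehicle peak of 5 tags and a fold of 4.76. MAFF and MAFK, the other small Maf genes, had no peak in either list, so MAFG was the only small Maf gene of the 3 with one. Of 13 target genes, 11 had an SFN peak and 2 a vehicle peak, and TALDO1 and PGD had neither. In the group described here, 3 of 6 genes had a peak after SFN. The windows of the other genes differ in width with the gene span, and no share over all windows of this kind is given. Of all 50-kb stretches, 1.66% held an SFN peak and 2.34% a vehicle peak. The other genes were also chosen with earlier results of these data known. The groups are therefore not ranked from these counts of few genes, which were not tested.

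Among the 15 genes with an SFN peak, ordered by the SFN peak of highest fold at each, MAFG came sixth, KEAP1 11th and SQSTM1 last. By height MAFG stood behind only NQO1 and FTH1, at a higher local control than either. By the height of the same peaks KEAP1 stood 9th and SQSTM1 12th, ahead of SLC7A11 (12 tags), ME1 (10) and BACH2 (6). ME1 also had an SFN peak of lower fold with 24 tags. The targets ahead of MAFG by fold were NQO1 (56.6), FTH1 (51.4), the heme oxygenase gene HMOX1 (34.5), the thioredoxin reductase gene TXNRD1 (33.8) and the efflux pump gene ABCC3 (28.2). Between MAFG and KEAP1 stood the ferritin light chain gene FTL (15.5), GCLM (11.8), the cystine transporter gene SLC7A11 (9.14) and the sulfiredoxin gene SRXN1 (7.82). ME1 (7.02) and GCLC (6.85) followed KEAP1. Over the 11 targets the median fold was 15.5, and at 5 of them this peak had a control level of 3 or more. HMOX1 and TXNRD1, with 67 tags each at that peak, had no vehicle peak, whereas MAFG with 88 tags had one of 14 tags. Of these 15 genes, MAFG had the highest vehicle peak, above NQO1 with 7 tags.

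**Figure D4:**
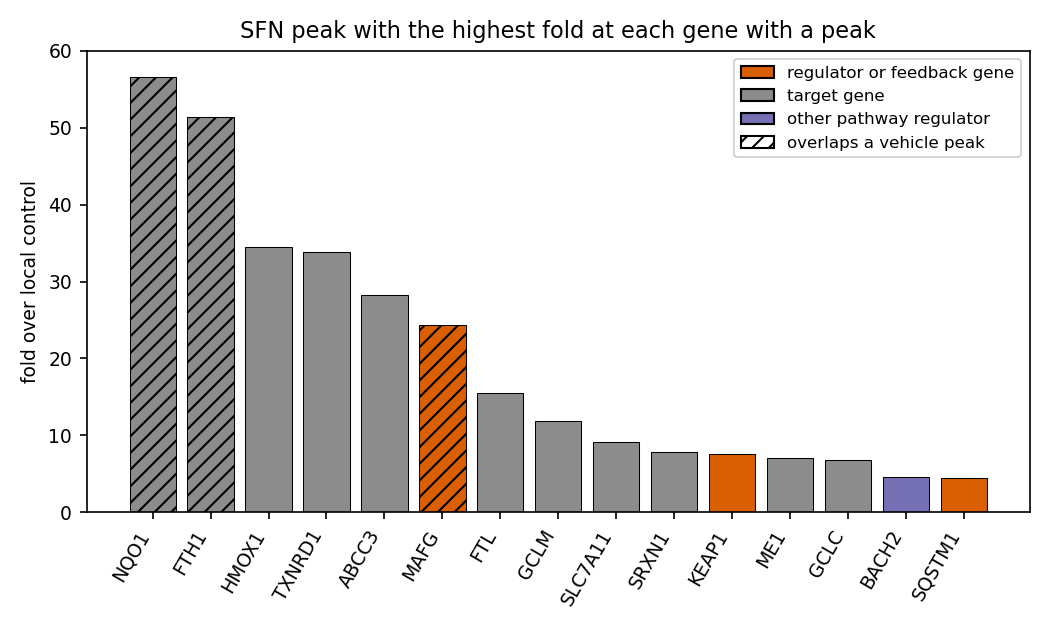
Fold over the local control of the SFN peak with the highest fold at each of the 15 genes with an SFN peak, as bars from 0, in order. MAFG (24.4) stands sixth, KEAP1 (7.64) and SQSTM1 (4.42) stand among the lowest, and MAFG is the only one of the 3 whose SFN peak overlaps a vehicle peak (hatched).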

How the data were processed

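Per the file headers, the authors called peaks with MACS 2.1.0.20140616 at a q cutoff of 0.05, with 36-bp tags and at most 1 tag kept per position, against 1 control whose name holds both input and IgG. BWA, CASAVA 1.4 and the build hg19 come from the submitters' processing notes. For pooling of a treatment's samples, the answer is not given in the sources. The deposited values are a signal (the pileup of tags at the summit), a fold ratio over the local control, and −log10 p and −log10 q values.

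The local control was solved from each peak's fold and tag height as (tags + 1) / fold − 1, and it gave the deposited −log10 p again to within 0.0001. Heights scaled to 1000000 kept tags have exact 95% Poisson intervals, and their ratios exact binomial ones, which cover counting error only. A peak is shared if it overlaps by at least 1 bp. Functions were tested on made-up peaks (Python 3.11.15, pandas 2.3.3, scipy 1.17.1).

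All 6 genes were named with every peak in their windows, and other pathway genes with their peak of highest fold. Besides the 19 other genes given, 1 gene planned for that list was left out of it and is not reported here. The genes, lists and settings were chosen with earlier results of these data known. The hg19 spans of the 19 other genes were entered by hand from general knowledge. They were checked only for chromosome and length against RefSeq (GRCh38.p14): all 19 chromosomes matched and the lengths were 92.5% to 102% of RefSeq's. Peak sequences in hg19 were not used here.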

Additional observations from a re-analysis of the deposited data

How the results depend on the processing

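Counts of genes with a peak, of peaks and of overlaps stayed within 1.5 times their reported value in 18 of 24 alternatives. With windows 50 kb wider on each side, the vehicle list had 2 peaks at 2 genes in place of 1 at 1, by the peak of 4 tags beside SQSTM1. With only peaks at a control level under 3, there were 0 peaks at 0 genes in both lists, since all 4 peaks lie at higher levels. A q of 1e-05 or less, narrower windows and other rules of overlap gave the reported counts. The share of stretches with an SFN peak was 0.878% at 25 kb and 3.18% at 100 kb, and with a vehicle peak 1.21% and 4.52%, as stretches of other length must give. No paired analysis was possible because the lists carry no values per sample. The vehicle depth of 1459665 kept tags, 12.8% of the vehicle tags, limits what the missing calls at KEAP1 and SQSTM1 can show.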
